A study of Mus musculus with 6 samples.

Results

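The genes examined were those encoding subunits of the mitochondrial respiratory chain and of ATP synthase. They were taken as every array probe whose only gene symbol in the platform annotation starts with Nduf, Uqcr or Atp5, is Sdha, Sdhb, Sdhc or Sdhd, or is Cox followed by a digit from 4 to 8. This gave 77 probes for 76 genes, of 15120 probes with 1 symbol and 20289 probes in all. Of the 77 probes, 70 report subunits of the complexes: 30 for complex I, 3 for complex II, 7 for complex III, 15 for complex IV and 15 for ATP synthase. The other 7 share only the name, being 5 assembly factors of complex I, the supercomplex factor Cox7a2l and the pseudogene Ndufs5-ps. Ndufa4, named after complex I but now assigned to complex IV, was counted with complex IV.

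RNA came from urogenital ridges of mouse embryos at E11.5 with 11 to 12 tail somites, just before the sexes diverge. Knockout (KO) embryos were of strain Mf1 and homozygous for a deletion of Wt1, the Wilms tumour transcription factor gene, and wild-type (WT) embryos were also Mf1. Each genotype was measured on 3 single-colour arrays, and for every array the labels give pooled tissue of 5 embryos, of which 4 were female and 1 was male. Nothing in the labels sets the 3 pools of a genotype apart as independent ones, so the p-values cover the variation among these arrays alone, and that variation may be technical.

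The respiratory chain sits in the inner mitochondrial membrane. Complex I takes electrons from NADH and complex II from succinate, ubiquinone passes them to complex III, and cytochrome c passes them on to complex IV, which reduces oxygen to water. Complexes I, III and IV pump protons, and ATP synthase makes ATP from the gradient. Most subunits are encoded in the nucleus, and the probes described here are for such genes only. Their transcripts are abundant in nearly all embryonic cells, and a few subunits of complex IV have a second gene used mainly in heart and skeletal muscle.

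On the brighter of its probes (2836), Wt1 itself had intensities of 14.3, 15.7 and 14.2 on the KO arrays, against 44.1, 43.6 and 39.1 on the WT arrays. The deposited values are intensities on a linear scale with array medians of 0.956 to 0.966. The sum of all positive intensities was 199386 to 220099 on the KO arrays and 170286 to 179040 on the WT arrays, and the 99th percentile was 163 to 179.9 on the KO arrays and 124 to 132 on the WT arrays. KO arrays thus had larger values at the bright end although the medians were nearly equal. Arrays of 1 genotype correlated at r = 0.983 to 0.986 in KO and 0.991 to 0.992 in WT, and arrays of different genotypes at 0.966 to 0.972 (Pearson's r of log2 values across probes, which are not independent replicates). Summed intensity of the gonadal primordium and coelomic epithelium markers (18 on the array) was 65.1 to 66.3 in KO and 142 to 151 in WT, and that of the neural crest and neuron markers (16 on the array) was 108 to 112 in KO and 66.0 to 67.6 in WT. That of the hepatocyte and gut endoderm markers (14 on the array) was 21.8 to 23.0 in KO and 15.5 to 16.0 in WT, while 3 of 10 tested were called higher and 2 lower. Erythroid markers overlapped, at 1457 to 1564 in KO and 1465 to 1509 in WT. Of the gonadal and coelomic markers, 10 of 15 tested were called lower and none higher. Of the neuronal markers 12 of 15 were called higher and none lower. Of 9 tested erythroid markers 1 was called higher and none lower, and 1 and 3 after quantile normalization. Calls are defined in the next paragraph and, unless stated, are on the deposited scale. Over all tested probes 24.1% were higher and 17.2% lower on that scale. The hepatocyte and gut endoderm shares, 30% and 20%, were near these. The gonadal and coelomic markers include Wt1, the deleted gene itself, with means of 14.7 in KO and 42.3 in WT. It thus counts in both their summed intensity and their lower calls. The part of this difference in cell markers in the results below was not tested, and in pooled tissue fewer cells of a type and less RNA per cell cannot be told apart.

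The number of respiratory chain probes called higher or lower in KO, and the sign of their median change, depended on how the arrays were scaled. A probe was called when its adjusted p was under 0.05 in limma's moderated test over all tested probes. On the deposited scale, 36 of the 76 tested probes were called higher in KO and 8 lower, where 24.1% of all 15062 tested probes were higher and 17.2% lower (41.3% either way). After quantile normalization, which gives every array the same distribution of values, 11 of 76 were called higher and 20 lower, where 20.2% of all 15061 tested probes were higher and 19.6% lower (39.8% either way). The median log2 change (KO minus WT) of the 76 probes was 0.20 on the deposited scale and -0.08 after quantile normalization. It was 0.09 and 0.03 over all tested probes. All 3 KO arrays lay above all 3 WT arrays for 42 probes and below them for 8 on the deposited scale, where 31.4% and 21.4% of all tested probes did so (52.8% either way). After quantile normalization this held for 21 and 26 probes, against 27% and 24.5% of all (51.5% either way).

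These probes are bright, and 58 of the 76 lay in the brightest eighth of all tested probes. In that eighth as a whole, 54.9% of the 1883 probes were called higher in KO and 8.6% lower on the deposited scale (63.5% either way), and their median log2 change was 0.26. The 58 respiratory chain probes there had 31 called higher and 4 lower, and a median of 0.26. Their share of higher calls, 53.4%, was thus close to that of other bright probes. After quantile normalization 25.3% of the bright eighth was higher and 24.8% lower (50.1% either way), with a median of -0.00024, and of the 58 probes 7 were higher and 16 lower, with a median of -0.10. No respiratory chain probe was called in opposite directions on these scales: 25 lost a higher call after quantile normalization, 12 gained a lower one, and 11 higher and 8 lower calls stood on both. Over all probes tested on both scales, 19% were called higher on both, 16.4% lower on both and 0.0133% higher and then lower.

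**Figure D1:**
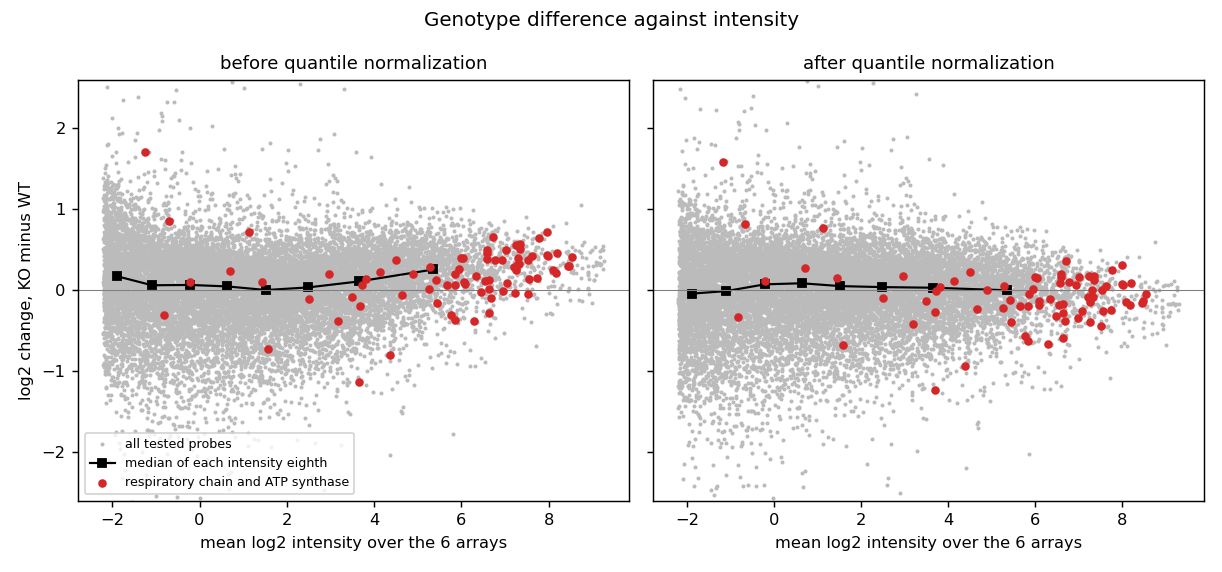
Log2 change (KO minus WT) against mean log2 intensity over the 6 arrays for all tested probes (grey) and the 76 respiratory chain and ATP synthase probes (red), on the deposited scale (left) and after quantile normalization (right). Black squares are medians of the intensity eighths of the deposited scale, the vertical axis leaves out probes beyond 2.6, and the brightest eighth has a median of 0.26 on the left and close to 0 on the right.

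As a share of the summed intensity of an array, the 77 probes together made up 4.32%, 4.16% and 4.205% on the KO arrays and 4.14%, 4.17% and 4.16% on the WT arrays. The genotypes overlapped in this share. Complex I probes made up 1.47%, 1.47% and 1.504% on the KO arrays and 1.37%, 1.37% and 1.36% on the WT arrays, with no overlap. Complex III probes made up 0.407%, 0.390% and 0.392% on the KO arrays and 0.357%, 0.362% and 0.358% on the WT arrays, also without overlap. Complex IV probes, at 1.03% to 1.07% on the KO arrays and 1.03% to 1.08% on the WT arrays, overlapped, and so did ATP synthase probes, at 1.11% to 1.21% on the KO arrays and 1.18% to 1.202% on the WT arrays. Complex II probes made up 0.0861% to 0.0895% on the KO arrays and 0.0920% to 0.0966% on the WT arrays, lower in KO and without overlap.

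**Figure D2:**
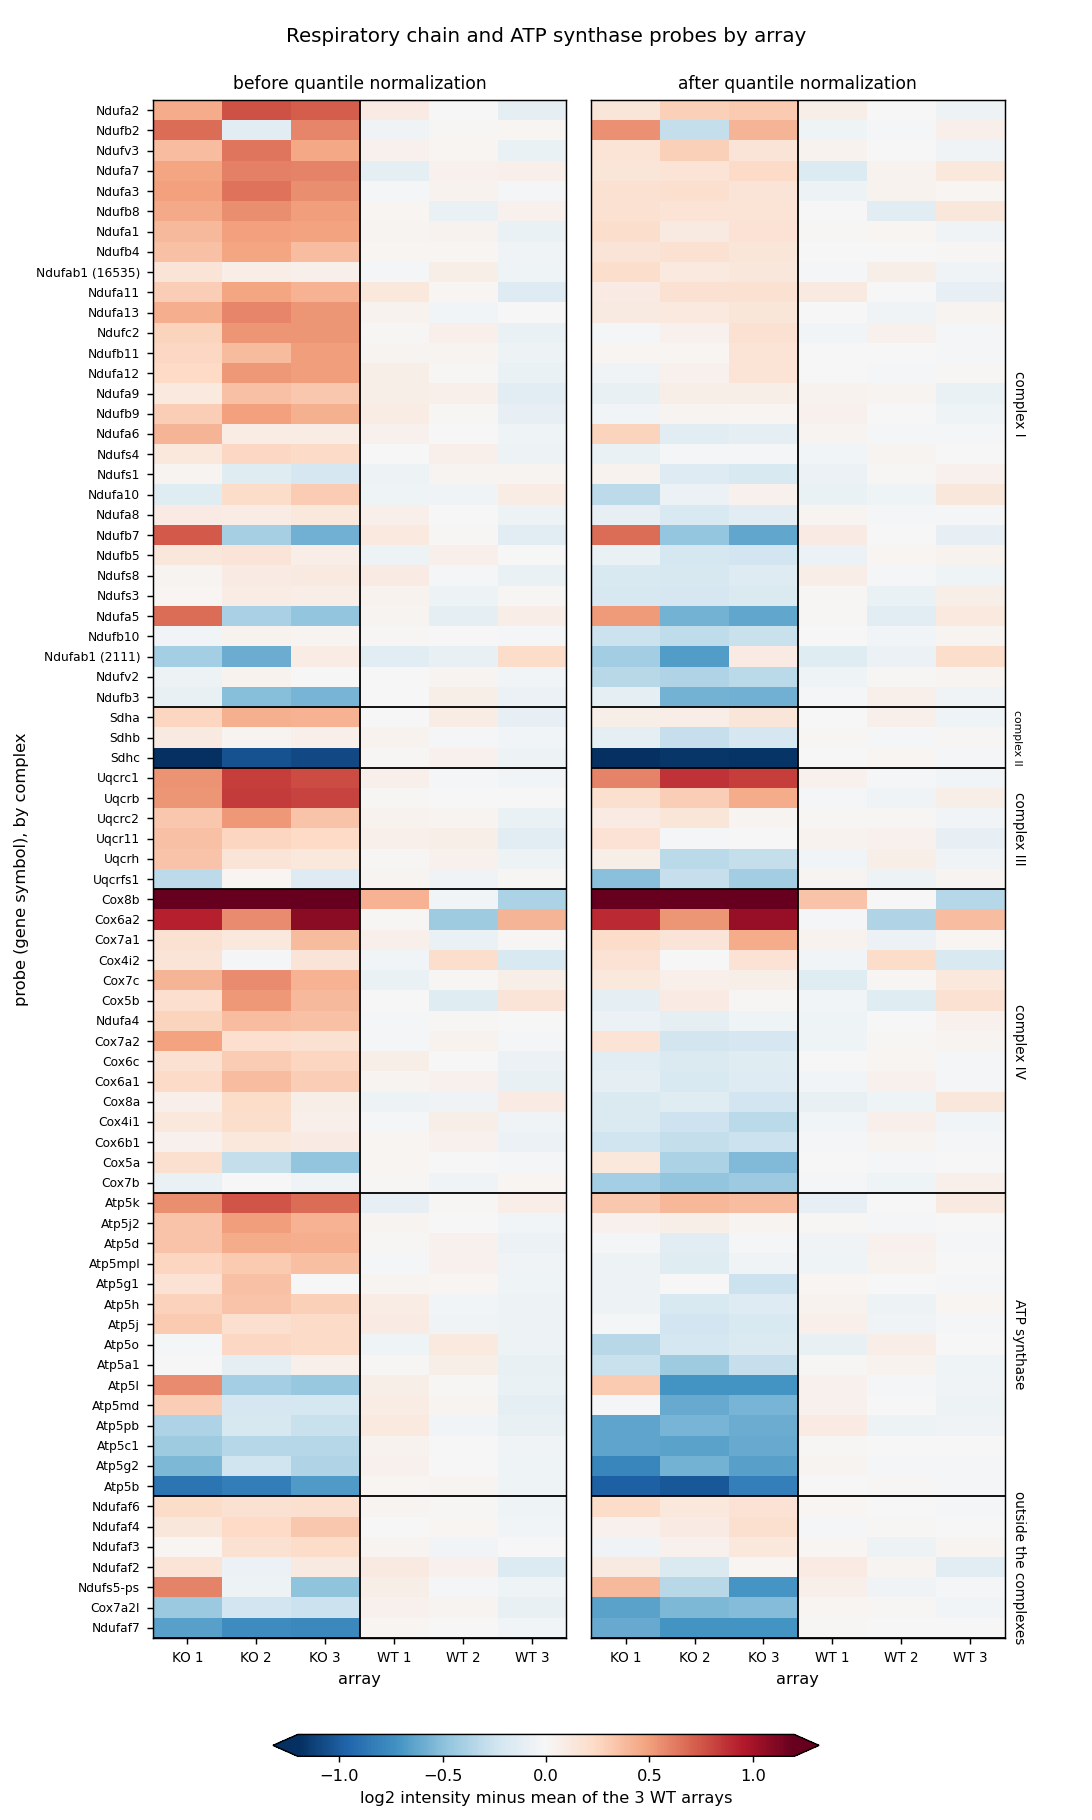
Log2 intensity of each of the 76 tested probes on every array, minus the mean of its 3 WT arrays, on the deposited scale (left) and after quantile normalization (right), grouped by complex. Red is above and blue below the WT mean, and colours end at 1.2. Most KO cells of complex I are red on the left and pale on the right, while Sdhc, Atp5b and Ndufaf7 are blue and Cox8b and Cox6a2 red in both.

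Complex I, the NADH dehydrogenase, has a core that carries the redox centres and a large set of accessory subunits around it. Of its 30 probes, 15 were called higher and 1 lower on the deposited scale, and 5 higher and 5 lower after quantile normalization. The median log2 change was 0.23 and 0.01 on these scales. In the brightest eighth, which holds 25 of these 30 probes, 54.9% of all probes were called higher and 8.6% lower on the deposited scale. After quantile normalization 25.3% were higher and 24.8% lower there. The subunit groups below were not compared by a test. Of 17 probes for accessory subunits of the Ndufa type, with Ndufab1, Ndufs4, Ndufv3 and Ndufc2, 11 were higher and none lower on the deposited scale, and 4 were higher and none lower after quantile normalization. Of these 17 probes, 15 lay in the brightest eighth. Of the 4 core subunits, 3 of them in that eighth, none was called on the deposited scale and 3 were called lower after quantile normalization.

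The largest differences in complex I were in accessory subunits. Ndufa2 had intensities of 237, 297 and 289 on the KO arrays and 188, 176 and 162 on the WT arrays. All 3 KO arrays were above the WT arrays, with a log2 change of 0.65 ± 0.10 (SE, adjusted p = 0.000307), and 0.25 ± 0.07 after quantile normalization (adjusted p = 0.0166). Ndufa3 had 187, 209.5 and 195 on the KO arrays and 131, 137 and 130.5 on the WT arrays. The genotypes were again apart, with log2 changes of 0.57 ± 0.07 (adjusted p = 0.000109) and 0.18 ± 0.06 after quantile normalization (adjusted p = 0.0352). Ndufv3, a small subunit of the NADH-oxidising arm, had 105, 127 and 112 on the KO arrays and 84.1, 82.8 and 76.95 on the WT arrays. Its log2 change was 0.49 ± 0.08 (adjusted p = 0.00066), and 0.20 ± 0.06 after quantile normalization (adjusted p = 0.0246). The calls of Ndufa2 and Ndufv3 each ended in 4 of 22 fits and that of Ndufa3 in 6, in each case fits with quantile normalization and an array left out or a replicate block. Ndufa12, the brightest probe of the complex, had 260.4, 316 and 313 on the KO arrays and 231, 223 and 209 on the WT arrays. It was called on the deposited scale only, with log2 changes of 0.42 ± 0.09 (adjusted p = 0.00326) and 0.06 ± 0.07 after quantile normalization (adjusted p = 0.52).

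The core subunits had nearly equal deposited values in the genotypes. Ndufv2, an iron-sulphur subunit of the NADH-oxidising arm, had 120.1, 129 and 125 on the KO arrays and 126, 128 and 122 on the WT arrays. These values overlapped, with a log2 change of -0.01 ± 0.07 (adjusted p = 0.937), and became -0.34 ± 0.06 after quantile normalization (adjusted p = 0.000958). Ndufs3 and Ndufs8, subunits of the arm that reduces ubiquinone, had log2 changes of 0.06 and 0.08 on the deposited scale, and of -0.19 and -0.18 after quantile normalization (adjusted p = 0.0284 and 0.0358). Ndufs1, which carries iron-sulphur clusters, was dimmer, at 5.48 ± 0.475 in KO and 5.88 ± 0.216 in WT (SD, n = 3 each), and was called on neither scale. These core genes were described after their values were seen.

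Among 9 probes for Ndufb subunits, which lie in the membrane arm, 4 were higher and 1 lower on the deposited scale, and 1 higher and 2 lower after quantile normalization. Of these 9 probes, 7 lay in the brightest eighth. Ndufb4 stood as higher on both, at 73.8 ± 3.55 in KO and 55.9 ± 1.55 in WT (SD, n = 3 each). Ndufb3 stood as lower on both, with 9.74, 7.27 and 7.05 on the KO arrays and 10.3, 10.9 and 9.89 on the WT arrays. Its log2 change was -0.39 ± 0.11 (adjusted p = 0.0167), and KO array 1 lay close to the WT arrays. The call of Ndufb3 ended in 7 of 22 fits, among them those without KO array 2, KO array 3 or WT array 2, and that of Ndufb4 in 6, all with quantile normalization. Both probes of Ndufab1, the acyl carrier subunit, went uncalled, with log2 changes of 0.10 ± 0.08 on the brighter and -0.31 ± 0.22 on the dimmer one.

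Complex II, succinate dehydrogenase, couples the tricarboxylic acid cycle to the chain, and 3 of its subunits were measured. Sdhc, one of the subunits that anchor the enzyme in the membrane, had the largest decrease of all 76 probes. It had 7.73, 9.12 and 8.88 on the KO arrays and 19.0, 19.5 and 18.0 on the WT arrays. Every KO array was below every WT array, with a log2 change of -1.14 ± 0.08 (adjusted p = 1.51e-06), or 2.20-fold lower, and -1.23 ± 0.07 after quantile normalization (adjusted p = 1.21e-06). Sdha, the flavoprotein, had 115.5, 130.04 and 128.7 on the KO arrays and 97.1, 103 and 90.3 on the WT arrays. It was called higher on the deposited scale (log2 change 0.37 ± 0.08, adjusted p = 0.00322) but not after quantile normalization (0.10 ± 0.06, adjusted p = 0.218). Sdhb, the iron-sulphur subunit, had 51.8 ± 1.503 in KO and 49.5 ± 1.34 in WT (SD, n = 3 each), with log2 changes of 0.07 ± 0.07 and, after quantile normalization, -0.19 ± 0.06 (adjusted p = 0.0296). The log2 ratio of Sdhc to Sdhb within an array was lower in KO, with a difference of -1.204 on the deposited scale and -1.04 after quantile normalization. This was 1 of 7 ratios of probe pairs, chosen after the values were seen, and each was compared by a two-sided exact permutation test, in which 3 against 3 arrays cannot go below p = 0.1. This ratio reached that value on both scales (adjusted over the 7 ratios, 0.175 on the deposited scale and 0.117 after quantile normalization).

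Complex III passes electrons from ubiquinol to cytochrome c. Of 7 probes, 6 were tested, and 4 were called higher and none lower on the deposited scale, against 2 higher and 1 lower after quantile normalization. The median log2 change was 0.34 and 0.07. In the brightest eighth, which holds 5 of the 6, 54.9% of all probes were higher and 8.6% lower, and 25.3% and 24.8% after quantile normalization. Uqcrb, a small subunit that binds ubiquinone, had 282, 349 and 344 on the KO arrays and 197, 195 and 195 on the WT arrays. The KO arrays were all above the WT arrays, with a log2 change of 0.73 ± 0.09 (adjusted p = 7.67e-05), and 0.31 ± 0.08 after quantile normalization (adjusted p = 0.00864). Uqcrc1, a core subunit, was dim on its probe, with 2.49, 3.04 and 2.94 on the KO arrays and 1.78, 1.69 and 1.67 on the WT arrays. Its log2 change of 0.72 ± 0.10 (adjusted p = 0.000154) was hardly altered by quantile normalization (0.76 ± 0.10, adjusted p = 0.000169). Uqcrh, the hinge subunit and the brightest probe of the complex, had 341, 298 and 293 on the KO arrays and 271, 278 and 256 on the WT arrays. The genotypes did not overlap, but the probe was called on neither scale (log2 change 0.21 ± 0.08 and -0.18 ± 0.10). Uqcrfs1, the Rieske iron-sulphur protein, was called only after quantile normalization, as lower (log2 change -0.40 ± 0.07, adjusted p = 0.00145), with 41.4 ± 4.83 in KO and 45.8 ± 1.29 in WT on the deposited scale (SD, n = 3 each). The probe for Uqcrq, whose product is a small subunit, lay below the limit for dim probes and was not tested.

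Complex IV, cytochrome c oxidase, contains several nuclear subunits that exist as isoforms from separate genes. Of its 15 probes, 8 were called higher and none lower on the deposited scale, and 2 higher and 3 lower after quantile normalization. The median log2 change was 0.25 and -0.09. In the brightest eighth, which holds 10 of the 15, 54.9% of all probes were higher and 8.6% lower, and 25.3% and 24.8% after quantile normalization. Both probes that stood as higher on both scales, Cox8b and Cox6a2, were muscle isoforms with low signal.

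Cox8b, the heart and skeletal muscle isoform of subunit 8, had 0.765, 0.847 and 0.69 on the KO arrays and 0.312, 0.228 and 0.179 on the WT arrays. All KO arrays lay above the WT arrays, and the log2 change was 1.71 ± 0.26 (adjusted p = 0.000313), and 1.59 ± 0.24 after quantile normalization (adjusted p = 0.000625). With 1 WT array under the limit of 0.217, below which probes were left out as dim, and no detection flags, the size of this change is uncertain. The ubiquitous isoform Cox8a had 93.6, 105 and 94.4 on the KO arrays and 86.4, 87.2 and 96.3 on the WT arrays. These overlapped, with log2 changes of 0.12 ± 0.08 and -0.18 ± 0.07, neither of them called. The log2 ratio of Cox8b to Cox8a was higher in KO by 1.596 and by 1.77 after quantile normalization, without overlap between the genotypes (exact permutation p = 0.1 on both scales, the smallest possible, adjusted 0.175 on the deposited scale).

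Cox6a2, the muscle isoform of subunit 6a, had 0.873, 0.678 and 0.968 on the KO arrays and 0.462, 0.342 and 0.61 on the WT arrays. Its log2 change was 0.86 ± 0.23 (adjusted p = 0.0109), and 0.82 ± 0.22 after quantile normalization (adjusted p = 0.0149), a call that ended after quantile normalization without KO array 3 or WT array 2. Its ubiquitous partner Cox6a1 was the brightest probe of the complex, with 366, 403 and 383 on the KO arrays and 319, 323 and 294 on the WT arrays. It was called higher on the deposited scale (0.30 ± 0.08, adjusted p = 0.0104), whereas its log2 change was -0.15 ± 0.06 and uncalled after quantile normalization. The ratio of Cox6a2 to Cox6a1 differed by 0.56 on the log2 scale with overlapping genotypes (exact permutation p = 0.2, adjusted 0.28), and by 0.98 after quantile normalization (p = 0.1).

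The third muscle isoform, Cox7a1, had 1.70, 1.63 and 1.95 on the KO arrays and 1.55, 1.42 and 1.51 on the WT arrays. The genotypes did not overlap, but it was called on neither scale (log2 change 0.23 ± 0.10, adjusted p = 0.0942, and 0.27 ± 0.10, adjusted p = 0.0623). Its broadly expressed partner Cox7a2 was called higher on the deposited scale (0.29 ± 0.09, adjusted p = 0.0218) and had a log2 change of -0.09 ± 0.10 after quantile normalization. Cox4i2, the lung and hypoxia isoform of subunit 4, averaged 0.895 ± 0.0598 in KO and 0.840 ± 0.118 in WT (SD, n = 3 each) and was not called. Cox4i1, its common counterpart, had log2 changes of 0.13 ± 0.08 and, after quantile normalization, -0.25 ± 0.06 (adjusted p = 0.0114). Cox6b1 and Cox7b were also called lower after quantile normalization only, at -0.26 ± 0.06 and -0.44 ± 0.06 (adjusted p = 0.00404 and 0.000272), while their deposited log2 changes were 0.09 and -0.04. The ratios Cox7a1 to Cox7a2 and Cox4i2 to Cox4i1 differed by -0.06 and -0.04 on the deposited scale (exact permutation p = 0.8 each, adjusted 0.8). After quantile normalization both differences turned positive, at 0.36 with overlapping genotypes for Cox7a1 to Cox7a2 (exact permutation p = 0.2, adjusted 0.2) and 0.37 without overlap for Cox4i2 to Cox4i1 (exact permutation p = 0.1, adjusted 0.117).

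Beside the muscle isoforms, 12 of the 22 tested skeletal and cardiac muscle markers were called higher in KO and 3 lower, where 24.1% and 17.2% of all tested probes were. After quantile normalization 12 were higher and 4 lower. Among those higher on both scales were Tnnc2, the fast skeletal troponin C (log2 change 4.28), Mstn, which encodes myostatin (3.65), and Myh3, the embryonic myosin heavy chain (2.86). The 3 lower on both scales were Myl7, the atrial myosin light chain (-1.05), Tnni3, the cardiac troponin I (-0.86), and Des, which encodes desmin (-0.85), named after their values were seen. The summed intensity of the 29 muscle markers was 104 to 111 on the KO arrays and 99.4 to 107 on the WT arrays. Ckm and Ckmt2, the muscle creatine kinases, were below the limit for dim probes, with means of 0.226 and 0.191 in KO and 0.116 and 0.115 in WT. The part of muscle cells in the Cox8b and Cox6a2 values was not tested.

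Upstream sequences of Cox8b and Cox8a, and of Cox6a1, were set beside these values, because muscle and ubiquitous isoforms are read from separate promoters. No RefSeq promoter window was found for Cox6a2. RefSeq promoter windows (GRCm38.p6) were found for 61 of the 76 genes, and the 250 bases before the start were searched on both strands. The motifs were that of the factor NRF1 (GCGCA and GCGC with any 1 base between them), a core ETS site such as GABP binds (CCGGAAG), and an E-box of the kind bound by myogenic factors (CANCTG). NRF1 and GABP are known regulators of nuclear respiratory genes. The NRF1 motif was in 11 of 61 windows, 18% against 4.23% of all 27025 genes with a window, the ETS motif in 9, 14.8% against 7.83%, and the E-box in 27, 44.3% against 48.2%. The 27025 genes were not limited to those on the array and were not matched for intensity. The matches do not overlap in the windows printed here. The Cox8b window lies at chr7:140900447-140900696 (minus strand), that of Cox8a at chr19:7217617-7217866 (minus strand) and that of Cox6a1 at chr5:115348959-115349208 (minus strand). They are given from 5′ to 3′, with capitals for a match to any of the 3 motifs.
Cox8b: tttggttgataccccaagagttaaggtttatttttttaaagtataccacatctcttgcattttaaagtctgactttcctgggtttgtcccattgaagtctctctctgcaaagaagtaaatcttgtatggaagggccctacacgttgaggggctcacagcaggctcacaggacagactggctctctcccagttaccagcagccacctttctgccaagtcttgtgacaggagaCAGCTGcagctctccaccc
Cox8a: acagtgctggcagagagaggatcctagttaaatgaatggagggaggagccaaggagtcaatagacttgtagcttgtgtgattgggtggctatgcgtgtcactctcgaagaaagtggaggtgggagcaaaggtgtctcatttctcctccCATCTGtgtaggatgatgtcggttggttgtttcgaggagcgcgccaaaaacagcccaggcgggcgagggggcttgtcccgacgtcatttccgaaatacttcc
Cox6a1: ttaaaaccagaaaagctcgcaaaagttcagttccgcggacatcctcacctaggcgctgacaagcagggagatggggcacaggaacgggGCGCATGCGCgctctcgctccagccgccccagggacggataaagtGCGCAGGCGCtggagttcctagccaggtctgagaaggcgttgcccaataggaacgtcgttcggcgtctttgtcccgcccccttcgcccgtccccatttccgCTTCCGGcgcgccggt
The window of the muscle isoform Cox8b held 1 E-box and neither of the other motifs, and so did that of Cox8a. The Cox6a1 window held 2 NRF1 motifs and 1 ETS motif. A match is a description of the sequence and does not show binding.

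ATP synthase has a catalytic head (F1) that turns over ATP and a membrane part (Fo) with the proton-driven ring. Of its 15 probes, 6 were called higher and 4 lower on the deposited scale, and 1 higher and 7 lower after quantile normalization. The median log2 change was 0.15 and -0.24. In the brightest eighth, which holds 14 of the 15, 54.9% of all probes were higher and 8.6% lower, and 25.3% and 24.8% after quantile normalization. Of the 8 respiratory chain probes called lower on both scales, 4 were for ATP synthase: Atp5b, Atp5c1, Atp5g2 and Atp5pb.

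Atp5b encodes the catalytic beta subunit of the head. It had 14.7, 15.2 and 16.9 on the KO arrays and 27.4, 27.5 and 26.1 on the WT arrays. Every KO array was below the WT arrays, with a log2 change of -0.80 ± 0.08 (adjusted p = 1.05e-05), or 1.74-fold lower, and -0.94 ± 0.07 after quantile normalization (adjusted p = 4.93e-06). Atp5c1, the gamma subunit that turns inside the head, had 48.7, 51.6 and 51.4 on the KO arrays and 67.4, 65.0 and 63.4 on the WT arrays. Here too the genotypes were apart, with log2 changes of -0.37 ± 0.07 (adjusted p = 0.00115) and -0.63 ± 0.05 (adjusted p = 1.58e-05). Atp5a1, the alpha subunit that alternates with beta in the head, had 88.3, 81.9 and 92.2 on the KO arrays and 89.6, 92.7 and 83.4 on the WT arrays. These overlapped (log2 change -0.02 ± 0.08, adjusted p = 0.87), and it was called lower only after quantile normalization (-0.32 ± 0.06, adjusted p = 0.00289). Within arrays, the log2 ratio of Atp5b to Atp5a1 was lower in KO, with a difference of -0.78, and -0.61 after quantile normalization, with no overlap (exact permutation p = 0.1 on both scales, adjusted 0.175 on the deposited scale). Atp5d, the delta subunit and the brightest of the complex, had 407, 437 and 437 on the KO arrays and 325, 334 and 306 on the WT arrays. It was called higher on the deposited scale (0.41 ± 0.08, adjusted p = 0.0014), with a log2 change of -0.05 ± 0.06 after quantile normalization.

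Subunit c, which forms the ring, is made from several genes whose mature proteins are the same. Atp5g3, another gene of this set, had no probe among those examined, so only Atp5g1 and Atp5g2 are compared. Atp5g2 had 61.1, 75.4 and 69.1 on the KO arrays and 92.02, 89.05 and 86.0 on the WT arrays. The KO values were all below the WT values, with log2 changes of -0.38 ± 0.09 (adjusted p = 0.00366) and -0.67 ± 0.07 after quantile normalization (adjusted p = 4.57e-05). Atp5g1 had 85.6, 96.3 and 75.8 on the KO arrays and 77.4, 76.9 and 72.9 on the WT arrays. Its genotypes overlapped, and it was called on neither scale (0.18 ± 0.09 and -0.11 ± 0.07). The log2 ratio of Atp5g2 to Atp5g1 was lower in KO, with a difference of -0.56 on both scales, without overlap (exact permutation p = 0.1, adjusted 0.175 on the deposited scale).

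Other membrane and stalk subunits went both ways. Atp5k, the e subunit that takes part in dimer formation, had 123, 141 and 133 on the KO arrays and 78.1, 84.6 and 88.6 on the WT arrays. It was the only probe of the complex called higher on both scales (0.66 ± 0.08, adjusted p = 6.68e-05, and 0.37 ± 0.07, adjusted p = 0.0017). Atp5pb, the b subunit of the outer stalk, had 84.7, 96.0 and 91.3 on the KO arrays and 119, 107 and 103 on the WT arrays. Its log2 changes were -0.28 ± 0.08 (adjusted p = 0.0175) and -0.59 ± 0.06 after quantile normalization (adjusted p = 6.69e-05). The first of these calls ended without WT array 1 and without an intensity trend in the variance prior.

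The upstream windows of Atp5k, Atp5b and Atp5g2 are shown because their transcripts differed on both scales, the first higher and the others lower in KO. They lie at chr5:108434400-108434649 (minus strand), chr10:128083057-128083306 (plus strand) and chr15:102671048-102671297 (minus strand), with capitals as above.
Atp5k: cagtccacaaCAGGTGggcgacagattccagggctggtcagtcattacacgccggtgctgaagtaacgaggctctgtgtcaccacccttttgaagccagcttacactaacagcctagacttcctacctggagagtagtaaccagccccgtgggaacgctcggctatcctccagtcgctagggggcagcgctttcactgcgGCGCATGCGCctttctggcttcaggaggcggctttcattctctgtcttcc
Atp5b: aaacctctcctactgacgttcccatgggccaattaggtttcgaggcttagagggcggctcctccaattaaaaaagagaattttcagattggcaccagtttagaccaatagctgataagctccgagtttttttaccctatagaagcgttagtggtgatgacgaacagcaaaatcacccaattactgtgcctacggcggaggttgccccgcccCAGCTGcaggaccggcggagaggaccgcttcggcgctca
Atp5g2: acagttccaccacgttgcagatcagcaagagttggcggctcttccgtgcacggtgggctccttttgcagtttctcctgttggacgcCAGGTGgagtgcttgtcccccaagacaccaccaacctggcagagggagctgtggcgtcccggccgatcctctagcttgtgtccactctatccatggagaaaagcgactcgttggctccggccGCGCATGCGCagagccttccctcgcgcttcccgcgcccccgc
The NRF1 motif stood once in the Atp5k window and once in the Atp5g2 window, and the Atp5b window had only an E-box. Whether a motif bears on the direction of a change was not tested. Over the 11 probes whose window held the NRF1 motif, the median log2 change was 0.30 on the deposited scale and -0.13 after quantile normalization. Over the 51 probes of windows without it, the medians were 0.18 and -0.09.

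**Figure D3:**
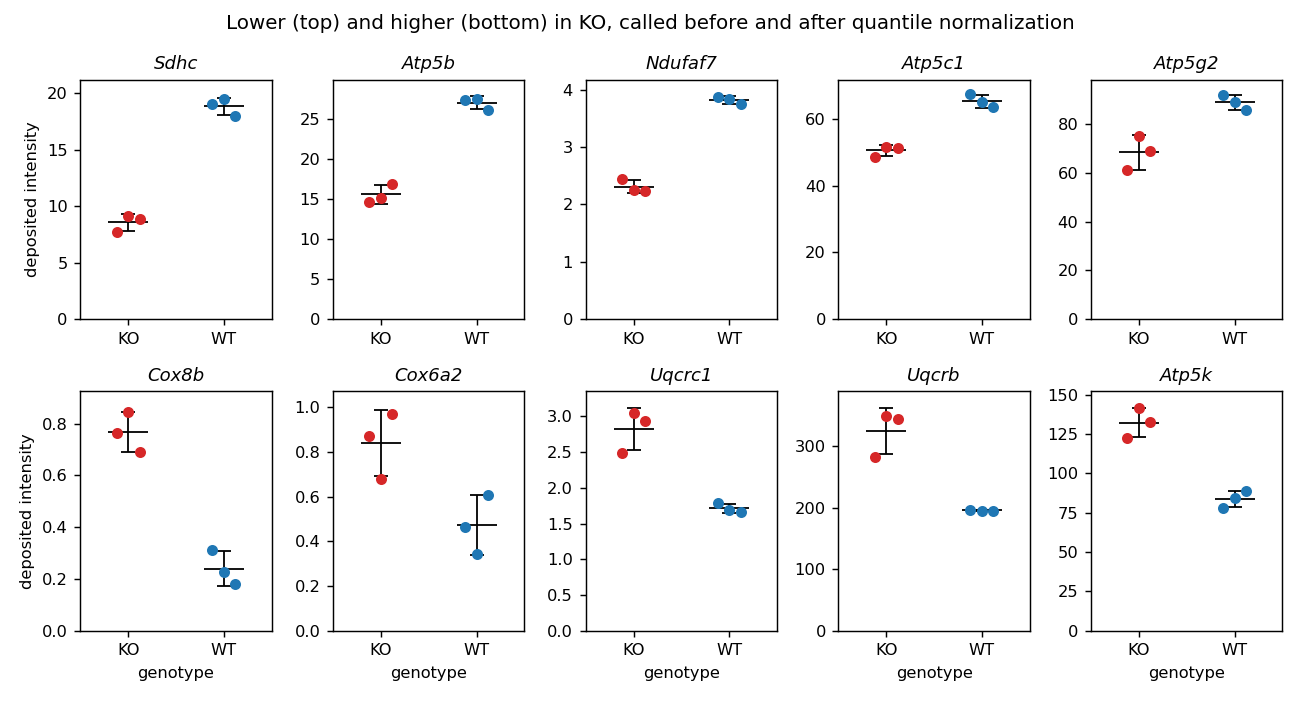
Deposited intensities of 5 genes called lower (top) and 5 called higher (bottom) in KO on both scales, with each point an array and bars giving mean ± SD (n = 3). KO and WT points are apart in every panel, and all axes start at 0.

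Outside the complexes, the assembly factor Ndufaf7, a methyltransferase that acts on a complex I subunit, had 2.44, 2.26 and 2.23 on the KO arrays and 3.88, 3.85 and 3.74 on the WT arrays. It was lower without overlap (log2 change -0.73 ± 0.08, adjusted p = 3.28e-05, and -0.68 ± 0.07 after quantile normalization, adjusted p = 7.31e-05). Ndufaf6, another assembly factor of complex I, averaged 8.34 ± 0.115 in KO and 7.27 ± 0.222 in WT (SD, n = 3 each) and was called higher on both scales (0.20 ± 0.07, adjusted p = 0.0392, and 0.18 ± 0.06, adjusted p = 0.0448), but in only 8 of 22 fits. Cox7a2l, which joins complexes III and IV into supercomplexes, had 44.7, 52.0 and 50.9 on the KO arrays and 63.0, 62.4 and 57.3 on the WT arrays. It was lower on both scales (-0.31 ± 0.08, adjusted p = 0.00894, and -0.57 ± 0.06, adjusted p = 5.47e-05). Of the remaining 4, only Ndufaf4 was called, as higher on the deposited scale.

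**Figure D4:**
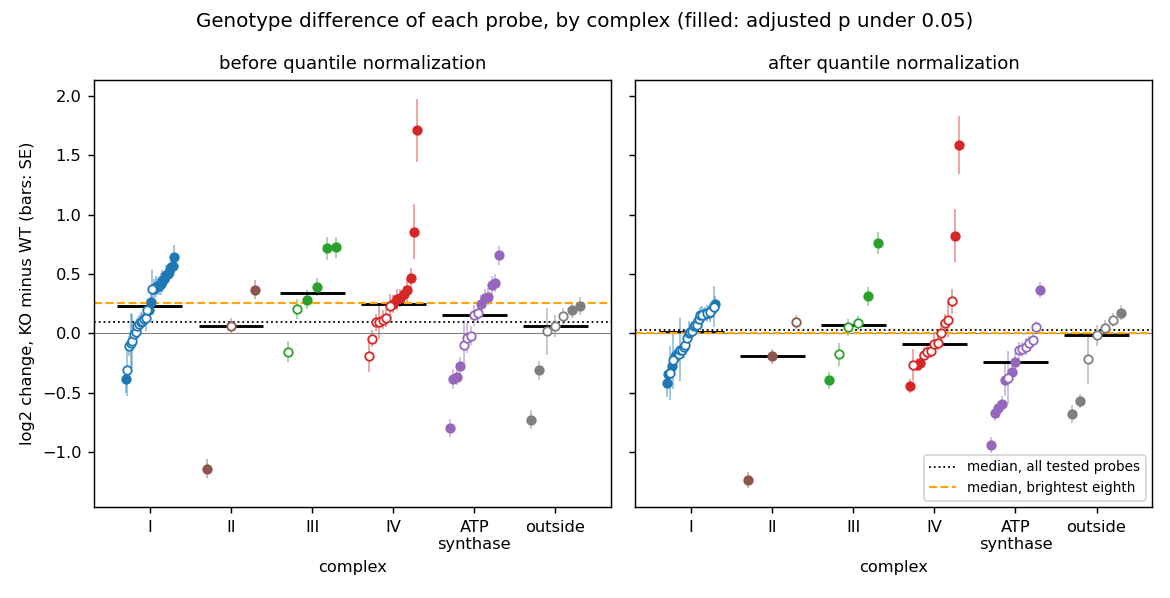
Log2 change (KO minus WT, bars SE) of each tested probe by complex, on the deposited scale (left) and after quantile normalization (right), with filled points for adjusted p under 0.05. Dotted and dashed lines are the medians of all tested probes and of the brightest eighth. Thick bars are medians of a complex, which move from 0.23 to 0.01 for complex I and from 0.15 to -0.24 for ATP synthase between the panels.

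Over 22 fits, which varied the normalization, floor, filter, variance prior, replicate block and arrays, 10 probes kept their call in every fit that tested them. The 4 called higher were Cox8b, Uqcrc1, Uqcrb and Atp5k, and the 6 called lower were Sdhc, Atp5b, Atp5c1, Atp5g2, Ndufaf7 and Cox7a2l. In different fits 7 probes were called in opposite directions, and 5 were called in none. The 22 fits share their arrays and are not independent of each other. How many of all tested probes kept their call in every fit was not counted, so these counts cannot be read as many or few. On the deposited and quantile-normalized scales alone, 19% of all probes were called higher on both and 16.4% lower on both.

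For some probes 1 array decided the value. On 6 of the 76 tested probes KO array 1 lay over 0.5 above the mean of the other KO arrays on the log2 scale, and on none did it lie that far below. These 6 were 7.89% of the tested respiratory chain probes. Over all 15055 probes compared, 1153 had KO array 1 above by that much and 947 below, 13.9% together, and over the 1883 probes of the brightest eighth, which holds 4 of the 6, 54 were above and 9 below, 3.35% together. Atp5l, the g subunit of ATP synthase, had 157, 79.9 and 77.3 on the KO arrays and 111, 107 and 99.9 on the WT arrays. KO array 1 was thus above all WT arrays and the other KO arrays below them, and the log2 change of -0.10 became -0.43 without it (adjusted p = 4.45e-05). Ndufa5 had 40.9, 19.7 and 18.5 on the KO arrays and 26.3, 23.8 and 27.2 on the WT arrays. Ndufb7 had 19.3, 8.77 and 7.72 on the KO arrays and 12.5, 11.7 and 10.52 on the WT arrays. They followed the same order as Atp5l, with log2 changes without KO array 1 of -0.43 and -0.49 (adjusted p = 5.90e-05 and 8.01e-05). These probes were picked because KO array 1 lay high on them, so leaving it out was bound to lower their KO means. The p-values without that array depend on this choice and are no separate support for a lower level in KO. Without that array 14 respiratory chain probes were called lower on the deposited scale in place of 8, and 35 after quantile normalization in place of 20. Lower calls over all tested probes also became more frequent without it, 20.4% in place of 17.2% on the deposited scale and 23.6% in place of 19.6% after quantile normalization. What set KO array 1 apart on these probes was not tested.

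Other genes of mitochondrial respiration were read from lists, each gene by its brightest probe. Over all tested probes 24.1% were called higher and 17.2% lower on the deposited scale, and 20.2% and 19.6% after quantile normalization. Of 10 electron carriers and other inner membrane dehydrogenases, 4 were called higher and 1 lower on the deposited scale, and 2 and 1 after quantile normalization. Etfdh, which passes electrons from fatty acid oxidation to ubiquinone, was lower on both (log2 change -0.53 and -0.59), and Sqor, the sulphide:quinone oxidoreductase, higher on both (0.56 and 0.61). Of 21 assembly factors beyond those above, 6 were higher and 3 lower, and 4 and 5 after quantile normalization. Cox10, needed to make the haem of complex IV, had 7.14, 7.06 and 7.39 on the KO arrays and 4.29, 4.52 and 4.62 on the WT arrays. Its log2 change was 0.69 on both scales (adjusted p = 2.52e-05 on the deposited scale). Afg3l2, a protease of the inner membrane, was also higher on both (0.74 and 0.60), and Nubpl, an iron-sulphur factor for complex I, lower on both (-0.53 and -0.51).

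Of 15 tested regulators of respiratory genes and factors for mitochondrial DNA, 5 were higher and 2 lower, and 1 and 3 after quantile normalization. Yy1, a transcription factor of many mitochondrial genes, was lower on both scales (-0.38 and -0.34), Polg2, the accessory subunit of the mitochondrial DNA polymerase, likewise (-0.56 on both), and Gabpb1, a subunit of GABP, higher (0.26 and 0.31). Nrf1 was dim, at 0.419 in KO and 0.474 in WT on average, and neither it nor Gabpa was called. Of 18 genes of the tricarboxylic acid cycle and pyruvate dehydrogenase, 5 were higher and 8 lower, and 2 and 8 after quantile normalization. Sucla2, a subunit of succinyl-CoA ligase, was higher on both scales (0.78 and 0.58), as was Pdk3, a pyruvate dehydrogenase kinase (0.69 and 0.66), whereas its relative Pdk2 was lower (-0.76 and -0.74). Of 17 carriers, porins and import factors, 4 were higher and 6 lower, and 2 and 10 after quantile normalization, led by Hspd1, the mitochondrial chaperonin, at 8.07 in KO and 15.3 in WT (-0.94 and -1.002). The shares over all tested probes were 24.1% higher and 17.2% lower, and 20.2% and 19.6% after quantile normalization. Nrf1 and Gabpa were named after their values were seen.

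Calls in other gene families also differed between the scales. In the brightest eighth as a whole 54.9% were higher and 8.6% lower on the deposited scale, and 25.3% and 24.8% after quantile normalization. Over all tested probes the shares were 24.1% and 17.2%, and 20.2% and 19.6% after quantile normalization. Of 45 tested cytosolic ribosomal protein genes, 41 of them in the brightest eighth, 20 were higher and 3 lower on the deposited scale, and 2 higher and 15 lower after quantile normalization. Of 68 mitochondrial ribosomal protein genes, 37 of them in the brightest eighth, 26 were higher and 8 lower, and 17 higher and 14 lower after quantile normalization. Among 16 subunits of the V-type proton ATPase, the related pump of acidic vesicles, of which 5 lay in the brightest eighth, 5 were higher and 4 lower, and 2 and 5 after quantile normalization. No test compared these lists with the respiratory chain probes.

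**Figure D5:**
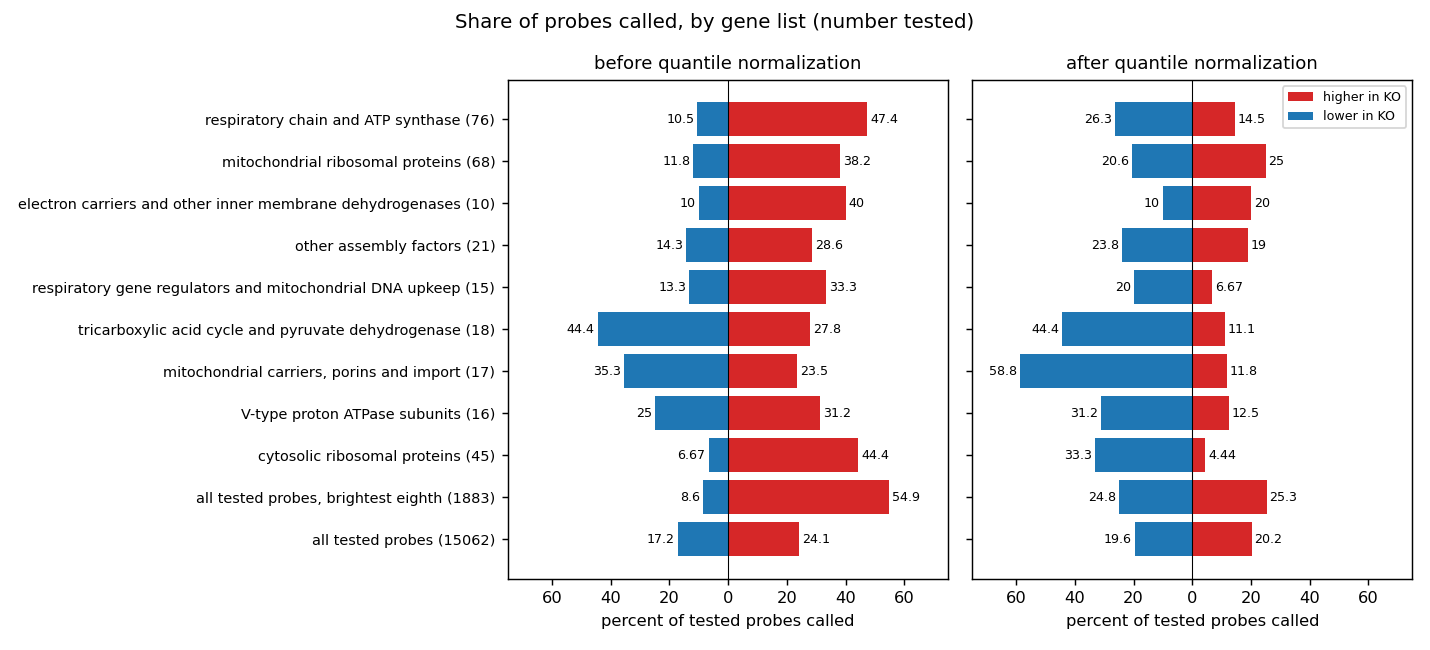
Percent of tested probes called higher (red, to the right) and lower (blue, to the left) in KO for the respiratory chain and ATP synthase probes, related gene lists, the brightest eighth and all tested probes, with the number tested in brackets. On the deposited scale (left) 47.4% of the respiratory chain probes are higher, and after quantile normalization (right) 14.5% are higher and 26.3% lower.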

How the data were processed

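Total RNA was biotin-labelled and read on Amersham CodeLink Mouse 20k arrays with 1 colour, according to the labels and the design text. The deposited values are linear intensities, and the median of each array lies near 1; 153 to 246 values per array were at or below 0 and 190 to 212 were missing. What software and background correction the authors used is not given in the sources used here. No detection flags come with the values, and the number of arrays limits the precision.

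From the deposited intensities, values under the 5th percentile of positive values (0.0811) were set to it and log2 was taken. Probes with at least 2 values per genotype and a mean above the 25th percentile (0.217) were tested, 15062 in all, with limma 3.58.1 in R 4.3.3 (KO minus WT, intensity trend) and Benjamini-Hochberg adjustment. The fit was repeated after quantile normalization and under the alternatives named in the closing section. Gene names came from the platform annotation at GEO (38 probes had several symbols and 5131 were not listed), and all 76 genes matched RefSeq (GRCm38.p6) by Entrez identifier.

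The genes, complexes and lists were chosen with earlier results of these data known. Named genes are Wt1, per complex the brightest probe and up to 3 with the largest change among those called on both scales, all isoform sets of complex IV and subunit c, and up to 3 genes per list by the same rule. Others were named after their values were seen.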

Additional observations from a re-analysis of the deposited data

How the results depend on the processing

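Normalization changed the respiratory chain results most; the cause of each change below was not tested. Of the 76 probes, 36 were higher and 8 lower on the deposited scale; 13 and 18 under cyclic loess normalization, 11 and 20 under quantile normalization, and 7 and 18 under quantile normalization with the replicate block. The median log2 change of 0.20 became -0.0333 under cyclic loess and -0.0847 under quantile normalization, with or without the block. Over all tested probes 24.1% were higher and 17.2% lower on the deposited scale, and 20.2% and 19.6% under quantile normalization. By complex, cyclic loess gave 8 higher and 5 lower for complex I (median 0.0363), 0 higher for complex II (-0.1535), 2 higher and 1 lower for complex III (0.1014), 2 and 3 for complex IV (-0.0341) and 1 higher for ATP synthase (-0.2067). Quantile normalization gave 5 and 5 (0.0131), 0 and 2 (-0.1938), 2 and 1 (0.0711), 2 and 3 (-0.0887), and 1 and 7 (-0.2379) in the same order, and with the block the counts were the same except 2 and 3 for complex I. Complex II and ATP synthase also had lower calls under cyclic loess, which are not counted above. Among them were Sdhc, Atp5b, Atp5c1 and Atp5g2, which were lower in every fit. Of the 76 log2 changes, 57 were positive and 19 negative on the deposited scale, and 33 and 43 after quantile normalization. The probes named next are thus not all of those whose sign changed. Under cyclic loess, quantile normalization and quantile normalization with the block, Atp5d changed sign (-0.0046, -0.0524 and -0.0524), as did Cox4i1 (-0.2118, -0.2499 and -0.2499), Cox6a1 (-0.1066, -0.1533 and -0.1533), Cox6b1 (-0.2178, -0.2616 and -0.2616) and Cox7a2 (-0.0341, -0.0887 and -0.0887). Without an intensity trend complex I had 0 lower and complex IV 5 higher.

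The replicate block alone gave 35 higher and 8 lower probes and moved no count by over 1.5 times. Deviations from the genotype means of same-numbered arrays correlated at 0.000489, -0.0208 and -0.00572. These values showed no pairing by number, but with 3 arrays per genotype they cannot exclude one. Leaving out each array gave 28 to 39 higher and 7 to 14 lower probes (median 0.1734 to 0.2190), the most lower without KO array 1. Over all tested probes it gave 2824 to 4243 higher and 1976 to 3074 lower, the most of both without KO array 1. With every array kept, 3625 of all 15062 were higher and 2596 lower. Per complex the ranges were 13 to 16 higher and 0 to 3 lower (complex I, 3 without KO array 1), 3 to 4 and 0 to 1 (complex III), 5 to 8 and 0 to 1 (complex IV, 5 without WT array 2, median 0.2406 to 0.2789) and 5 to 7 and 3 to 6 (ATP synthase). With quantile normalization as well, settings chosen after seeing the data, the ranges were 4 to 14 higher and 14 to 35 lower and the medians -0.1054, -0.0501 and -0.0352 without KO arrays 1, 2 and 3 and -0.1023, -0.0834 and -0.0737 without WT arrays 1, 2 and 3. In the same order, 14, 8, 5, 6, 4 and 6 probes were higher and 35, 15, 14, 16, 14 and 15 lower. Over all tested probes, quantile normalization without KO array 1 gave 23.5% higher and 23.6% lower. The floor, the filter on dim probes and taking 1 probe a gene kept the counts of respiratory chain probes within 1.5 times. Dim probes such as Cox8b and Cox6a2 are limited by signal over background, which no flag records.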
